A study of Mus musculus with 6 samples.

Results

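The 40 genes described here act in mitosis: cyclins and kinases that drive entry, the spindle checkpoint, the kinetochore, spindle motors and condensin. They were chosen by name for these functions. All 40 were found among the 22098 gene symbols of the table, each as its transcript of highest mean, and all 40 were among the 10943 genes that averaged 1 RPKM or more (read numbers scaled to transcript length and library size). Their means over the libraries ran from 5.32 RPKM for Ccnb1 to 262 RPKM for Top2a, with a median of 51.9.

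Total RNA was sequenced from mouse bone marrow proB cells sorted as Hardy fraction B and as the pooled fractions C+C', called fraction C below. Both are early stages of B-lymphocyte development. The mice were C57BL/6 animals aged 6 to 7 weeks and were wild type (wt), Ikaros_ZnF1-/- (ZnF1) or Ikaros_ZnF4-/- (ZnF4), mutants of zinc fingers 1 and 4 in the DNA-binding domain of the transcription factor Ikaros. There are 6 libraries, 1 for each genotype and fraction, so no difference between a pair of libraries has a replicate check. The labels describe neither the alleles further nor the number of animals in a library.

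A cell that has copied its DNA enters mitosis when Cdk1, bound to cyclin A or B, is switched on. Chromosomes are then condensed, attached to the spindle through their kinetochores, and separated once the spindle checkpoint is satisfied and the anaphase-promoting complex destroys its targets. The transcripts of this machinery are made mostly in G2 phase and mitosis, under a repressor complex called DREAM and the activators B-Myb and Foxm1, which share the MuvB subunits. Large cycling cells are a feature of the proB and early preB stages, and fraction C' in particular holds them.

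Facts about whole libraries bear on what follows. Summed RPKM of 12 proB markers lay between 2146 (ZnF1, fraction C) and 4821 (ZnF4, fraction B), with none of the 12 at 0 in any library. The ZnF1 library of fraction C stood apart: 15 granulocyte and monocyte markers summed to 43724 RPKM there against 1036 to 3889 elsewhere, and 13 erythroid markers to 4073 against 137 to 329, with none of these markers at 0 in any library. The 10 markers of natural killer (NK) cells summed to 2.6 RPKM in the ZnF4 library of fraction B, where 7 of them were at 0, and to 9.8 in that of fraction C, against 53.8 to 123 in the remaining libraries. Xist, expressed from the inactive X chromosome, was at 81.3 and 91.9 RPKM in the wt libraries of fractions B and C and listed at 0 in all mutant libraries, while the Y-linked Ddx3y was at 11.9 to 15.0 RPKM in the mutants and listed at 0 in wt. Sex and genotype therefore cannot be told apart in any comparison of a mutant with wt. Ikzf1, the targeted gene, was at 150, 182 and 432 RPKM in wt, ZnF1 and ZnF4 of fraction B and at 169, 154 and 425 RPKM in fraction C. A value over the whole transcript does not check a change in a single finger. In bulk RNA, a smaller share of cells in mitosis and less RNA per mitotic cell cannot be told apart.

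Promoter sequences show what many of these genes have in common beyond the names by which they were chosen. The cell cycle genes homology region (CHR), with the letters TTTGAA, is bound by the MuvB complexes, and the CCAAT box, with the letters CCAAT, is bound by the activator NF-Y. Both were searched on both strands, so that they also appear as TTCAAA and ATTGG, and they were counted independently of each other. RefSeq promoters (build GRCm38.p6, from 250 bases before to 50 bases after the start) were at hand for 33 of the 40 members, as 34 promoters (2 overlapping promoters for Prc1). Smc4, Cdc25c, Ccna2, Foxm1, Aurkb, Kif20a and Tpx2 have no entry. The 100 bases before the start are shown for 7 members on which the results below turn: the most abundant member (Top2a), the kinase of mitotic entry (Cdk1), the members with the largest and the smallest difference in fraction B (Ccnb1 and Cenpa), members with opposite differences in the fractions (Cdc20 and Kif11) and the member that went its own way in ZnF1 (Ube2c). Capitals mark CHR and CCAAT matches on either strand. The stretches are chr11:99024190-99024289 (minus strand) for Top2a, chr10:69352913-69353012 (minus strand) for Cdk1, chr13:100786487-100786586 (minus strand) for Ccnb1, chr4:118437344-118437443 (minus strand) for Cdc20, chr2:164769829-164769928 (plus strand) for Ube2c, chr5:30666786-30666885 (plus strand) for Cenpa and chr19:37376282-37376381 (plus strand) for Kif11.
Top2a: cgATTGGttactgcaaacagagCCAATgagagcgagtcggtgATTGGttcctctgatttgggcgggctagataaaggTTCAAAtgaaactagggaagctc
Cdk1: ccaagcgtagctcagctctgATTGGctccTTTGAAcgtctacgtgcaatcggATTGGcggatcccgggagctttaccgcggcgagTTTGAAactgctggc
Ccnb1: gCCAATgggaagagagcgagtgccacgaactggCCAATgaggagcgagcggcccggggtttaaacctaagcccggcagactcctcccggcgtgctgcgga
Cdc20: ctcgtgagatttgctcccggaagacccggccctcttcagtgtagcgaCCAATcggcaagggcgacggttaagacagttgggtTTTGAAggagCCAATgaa
Ube2c: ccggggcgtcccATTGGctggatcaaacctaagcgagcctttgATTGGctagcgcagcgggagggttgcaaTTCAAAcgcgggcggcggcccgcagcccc
Cenpa: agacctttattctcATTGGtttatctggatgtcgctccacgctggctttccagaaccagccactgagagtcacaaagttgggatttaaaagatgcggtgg
Kif11: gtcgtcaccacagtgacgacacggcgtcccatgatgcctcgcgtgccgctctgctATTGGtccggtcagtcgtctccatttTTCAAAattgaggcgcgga

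A CHR match was present in 25 of the 34 member promoters, belonging to 24 members, against 17.9% of all 32851 promoters of the same length. CCAAT matches were present in 28 of the 34, belonging to 27 members, against 37.4% of all promoters. Promoters with both numbered 24 of 34, from 23 members, against 6.95% of all. Counting once the match that the overlapping promoters of Prc1 share, there were 29 CHR matches, of which 21 began within 50 bases of a start. The stretches shown differ in layout: Cdk1 holds 2 CHR and 2 CCAAT matches and Top2a 1 CHR and 3 CCAAT matches, whereas Ccnb1 holds 2 CCAAT matches and no CHR match anywhere in its window. Cenpa has its CHR match just after the start, outside the printed stretch. Such matches describe letters and do not show that a factor bound.

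**Figure D1:**
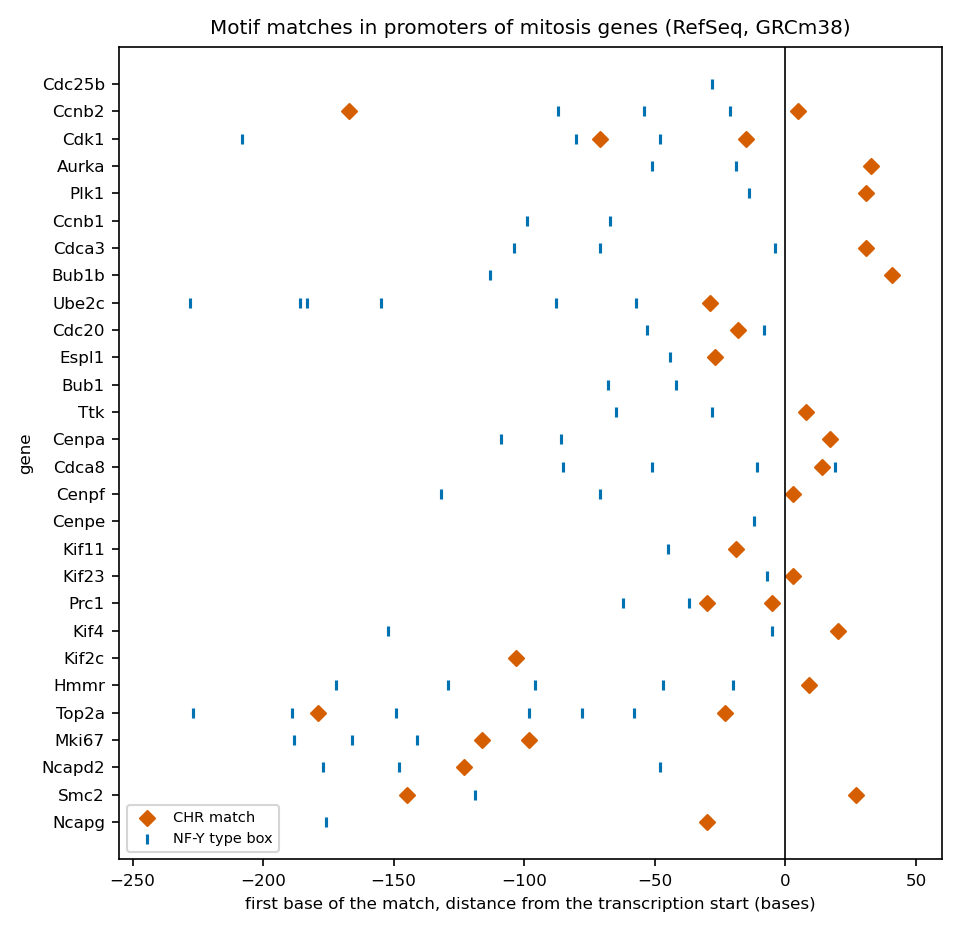
Positions of motif matches in RefSeq promoters (GRCm38) of the mitosis genes that hold at least 1 match. The horizontal axis gives the distance of the match's first base from the transcription start in bases, diamonds are CHR matches and ticks are CCAAT boxes (labelled NF-Y type box). The Prc1 matches are drawn from each of its 2 starts. CHR diamonds gather near the start, 21 of 29 distinct matches within 50 bases of one, and CCAAT ticks lie mostly before it.

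The ZnF4 library of fraction B had the lowest level of all 6 libraries for 40 of the 40 mitosis genes, against 32.4% of all 10943 genes. Leaving out ZnF1 of fraction C gave 40 as well, and the count was 38 to 40 when the libraries were rescaled to equal RPKM sums, by their median ratio or on the proB markers. The highest level was in the ZnF4 library of fraction C for 27 members, against 14% of all genes, in wt of fraction C for 10 and in ZnF1 of fraction C for 3. The count of 27 was 30 at equal RPKM sums, 23 by the median ratio and 1 on the proB markers, where ZnF1 of fraction C was highest for 29 members and wt of fraction C for 10. Summed over the members, the RPKM were 2376, 2688 and 1532 in wt, ZnF1 and ZnF4 of fraction B and 3036, 2807 and 3279 in fraction C.

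**Figure D2:**
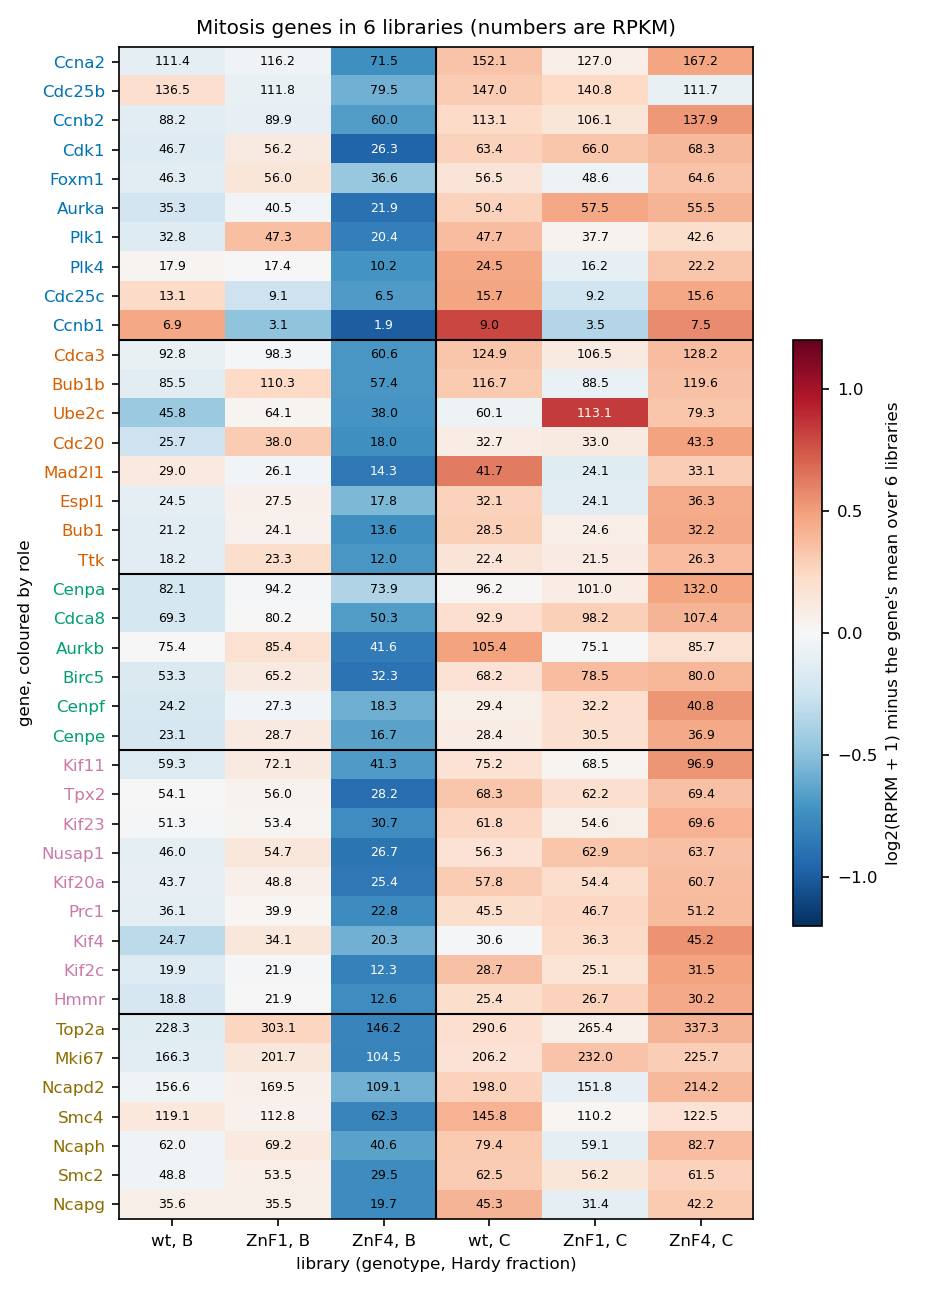
RPKM of the 40 mitosis genes (lines, gene names coloured by role) in the 6 libraries (columns). Numbers are RPKM and colours give log2(RPKM + 1) minus the gene's mean over the 6 libraries, blue below and red above it. The ZnF4, fraction B column is the bluest for every gene (for 38 to 40 of them after rescaling).

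Differences are given below as log2 folds of RPKM + 1, which understate the change of genes with low values, and a fold of at least 1.5 is used for counting. In fraction B, ZnF4 was lower than wt for 40 of 40 mitosis genes, where 55.8% of all genes were lower by any amount. Of the members, 25 were at least 1.5-fold lower and 0 at least 1.5-fold higher, beside 21.1% and 10% of all genes. The count of 25 was 15 when rescaled by the median ratio. The median was -0.64 (1.56-fold lower) against -0.09 over all genes. The members' interquartile range was 0.24 against 0.75 over all genes, which include means down to 1 RPKM. Summed proB markers in this pair were 3371 RPKM in wt and 4821 in ZnF4. Summed granulocyte and monocyte markers were 3889 and 1036, erythroid markers 329 and 137, and NK markers 104 and 2.6. The part of such cells in the difference was not tested.

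In fraction C, ZnF4 was higher than wt for 30 of 40 members, beside 45.4% of all genes, with a median of 0.14 against -0.05. Rescaled on the proB markers, the split was 16 higher and 24 lower, with a median of -0.04 against -0.20 over all genes. At the deposited scale none of the 40 was 1.5-fold apart in either direction, where 9.33% of all genes were at least 1.5-fold higher and 15.7% lower. The same 30 members were thus lower in fraction B and higher in fraction C, a pattern of 9.69% of all genes. At 1.25-fold or more in each direction the pattern held for 4 members, beside 0.667% of all genes. The remaining 10 (Ccnb1, Cdc25b, Cdc25c, Plk1, Plk4, Mad2l1, Aurkb, Smc2, Smc4 and Ncapg) were lower in both fractions. In the fraction C pair, summed proB markers were 2848 RPKM in wt and 4551 in ZnF4. Summed granulocyte and monocyte markers were 2738 and 1794, erythroid markers 261 and 204, and NK markers 53.8 and 9.8. The part of such cells was not tested. With 1 library each, the difference between the fractions has no test.

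**Figure D3:**
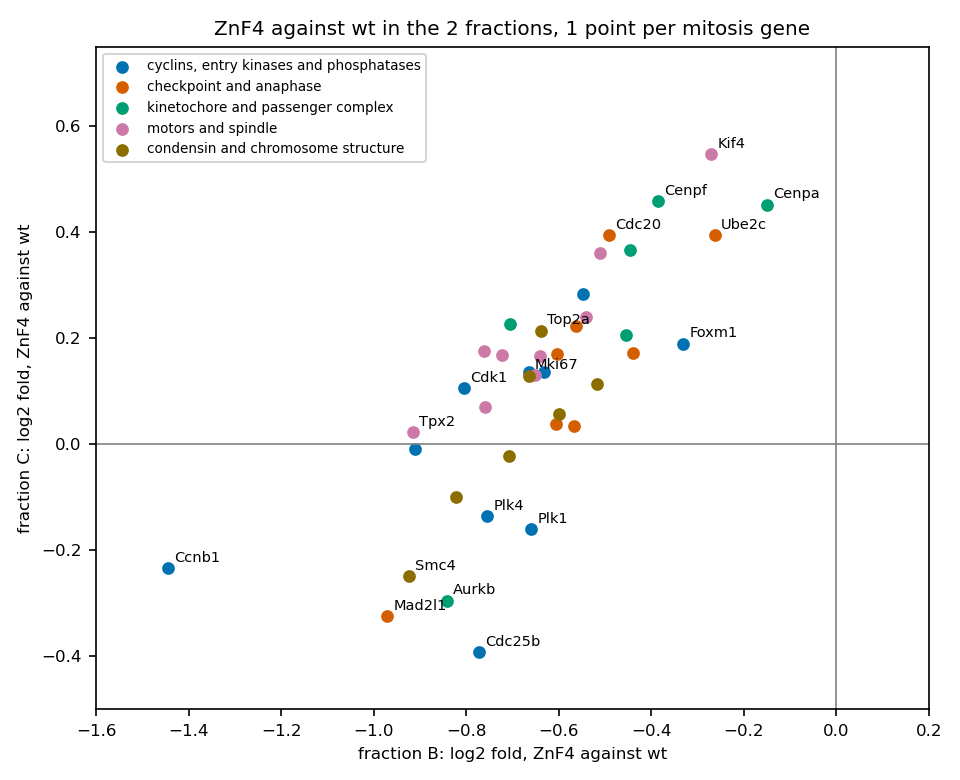
Log2 folds of ZnF4 against wt in fraction B (horizontal) and fraction C (vertical), 1 point per mitosis gene, coloured by role. All 40 points lie left of 0, between -1.45 (Ccnb1) and -0.15 (Cenpa), while 30 lie above 0 on the vertical axis, a count that was 16 after rescaling on the proB markers.

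The regulators of mitotic entry were 10 genes, with a median of -0.71 for ZnF4 against wt in fraction B (1.64-fold lower, 8 of 10 at least 1.5-fold) and of 0.05 in fraction C, where 5 were higher and 5 lower. Values are given here and below in the order wt, ZnF1, ZnF4, with B and C for the fractions. Ccna2, the cyclin A2 of S phase and mitotic entry, stood at 111, 116 and 71.5 RPKM in B and 152, 127 and 167 RPKM in C. Cdk1, the kinase that drives entry, stood at 46.7, 56.2 and 26.3 RPKM in B and 63.4, 66.0 and 68.3 RPKM in C, so that its 3 values in fraction C were close to each other. Both genes were lower in ZnF4 than in either other library of fraction B, by 1.55-fold (Ccna2) and 1.75-fold (Cdk1) against wt. Ccnb2, a cyclin B that binds Cdk1, followed Ccna2 with 88.2, 89.9 and 60 RPKM in B and 113, 106 and 138 RPKM in C.

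Ccnb1, cyclin B1, was the member with the lowest levels and the largest difference, with 6.9, 3.1 and 1.9 RPKM in B and 9.0, 3.5 and 7.5 RPKM in C. It was 2.72-fold lower in ZnF4 than wt of fraction B and 1.18-fold lower in fraction C, and lower in ZnF1 than in wt in both (1.93-fold and 2.22-fold). Near-identical stretches in 4 other genes (at least 95% identity over at least 100 bases, GENCODE transcripts) cover 51.9% of its transcript, among them the pseudogene Ccnb1-ps, and how the authors divided shared reads is not given in the sources used here, so these values are uncertain. The phosphatases that remove the inhibitory phosphates from Cdk1 differed from each other. Cdc25b stood at 136.5, 111.8 and 79.5 RPKM in B and 147.0, 140.8 and 111.7 RPKM in C, the member with the lowest ZnF4 fold in fraction C (-0.39). Cdc25c stood at 13.1, 9.1 and 6.5 RPKM in B and 15.7, 9.2 and 15.6 RPKM in C, so its ZnF4 value equalled wt in fraction C within 0.1 RPKM while ZnF1 was 1.64-fold below wt.

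Among the kinases, Plk1, which acts in entry, spindle assembly and cytokinesis, stood at 32.8, 47.3 and 20.4 RPKM in B and 47.7, 37.7 and 42.6 RPKM in C. Plk4, which starts centriole duplication, stood at 17.9, 17.4 and 10.2 RPKM in B and 24.5, 16.2 and 22.2 RPKM in C. Both were highest in wt of fraction C. Aurka, the spindle-pole kinase, was instead highest in ZnF1 of fraction C, with 35.3, 40.5 and 21.9 RPKM in B and 50.4, 57.5 and 55.5 RPKM in C. Foxm1, the transcription factor that activates many of the other members, had the smallest difference of this group for ZnF4 against wt in fraction B (-0.33), with 46.3, 56.0 and 36.6 RPKM in B and 56.5, 48.6 and 64.6 RPKM in C.

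The 8 genes of the spindle checkpoint and anaphase had a median of -0.56 for ZnF4 against wt in fraction B, with 3 at least 1.5-fold lower, and of 0.17 in fraction C, where 7 were higher and 1 lower. Bub1b, a checkpoint component that holds back the anaphase-promoting complex, stood at 85.5, 110 and 57.4 RPKM in B and 117, 88.5 and 120 RPKM in C. Ttk, the checkpoint kinase Mps1, was the least abundant of the group, with 18.2, 23.3 and 12.0 RPKM in B and 22.4, 21.5 and 26.3 RPKM in C. Both showed the same order at the deposited scale, ZnF1 above wt above ZnF4 in fraction B and ZnF4 above wt above ZnF1 in fraction C. Rescaling changes this order, in fraction C for Ttk by the median ratio and for Bub1b on the proB markers. Mad2l1, the checkpoint protein that captures Cdc20, was the exception, at 29.0, 26.1 and 14.3 RPKM in B and 41.7, 24.1 and 33.1 RPKM in C. It was 1.96-fold lower in ZnF4 than wt of fraction B, the largest difference after Ccnb1, and was 1.25-fold lower in fraction C. A copy in 1 other gene (Gm42430) covers 26.3% of its transcript.

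Cdc20 activates the anaphase-promoting complex and Ube2c is the ubiquitin-conjugating enzyme that works with it. Cdc20 stood at 25.7, 38 and 18 RPKM in B and 32.7, 33.0 and 43.3 RPKM in C, which made ZnF4 1.41-fold lower than wt in fraction B and 1.31-fold higher in fraction C. Ube2c stood at 45.8, 64.1 and 38 RPKM in B and 60.1, 113 and 79.3 RPKM in C. Its value in ZnF1 of fraction C was 1.87-fold that of wt, and it was the only member at least 1.5-fold higher there. This library is the one with 43724 RPKM of granulocyte and monocyte markers and 4073 RPKM of erythroid markers, and their part in the Ube2c value was not tested. Exons of Tnnc2 on the opposite strand overlap 22.8% of the Ube2c exon bases, and short copies in 15 other genes cover 15.9% of its transcript.

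Cdca3, which triggers degradation of the Wee1 kinase, had the highest levels of this group, with 92.8, 98.3 and 60.6 RPKM in B and 125, 107 and 128 RPKM in C. Bub1 and Espl1, the separase that cuts cohesin, were 1.52-fold and 1.36-fold lower in ZnF4 than wt of fraction B. Their levels lay between 13.6 and 36.3 RPKM over the 6 libraries.

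The kinetochore and the chromosomal passenger complex (6 genes) had the smallest difference of the roles in fraction B, with a median of -0.45 and 2 of 6 members at least 1.5-fold below wt in ZnF4, and the highest in fraction C, with a median of 0.30 and 5 of 6 higher. Cenpa, the histone H3 variant of centromeres, had the smallest difference of all 40 in fraction B, with 82.1, 94.2 and 73.9 RPKM, and stood at 96.2, 101 and 132 RPKM in fraction C. Cenpf, a large outer kinetochore protein, stood at 24.2, 27.3 and 18.3 RPKM in B and 29.4, 32.2 and 40.8 RPKM in C. Cenpe, the kinetochore motor, ran alongside it with 23.1, 28.7 and 16.7 RPKM in B and 28.4, 30.5 and 36.9 RPKM in C. For these 3 centromere and kinetochore genes ZnF4 was the highest library in fraction C at the deposited scale, an order that the proB markers turn for 37 of the 40 members in the ZnF4 and ZnF1 pair.

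Aurkb, the catalytic kinase of the passenger complex, differed from its partners. It stood at 75.4, 85.4 and 41.6 RPKM in B and 105, 75.1 and 85.7 RPKM in C, with ZnF4 1.79-fold below wt in fraction B and 1.23-fold below it in fraction C. Birc5 (survivin) stood at 53.3, 65.2 and 32.3 RPKM in B and 68.2, 78.5 and 80.0 RPKM in C, and Cdca8 (borealin) at 69.3, 80.2 and 50.3 and at 92.9, 98.2 and 107. In fraction C, ZnF4 was thus above wt for both partners and below wt for the kinase. Another transcript of Birc5 showed the same order in fraction B, at 27.8, 32.7 and 17.7 RPKM. Over the members with several transcripts, 6 of 9 further transcripts reached 1 RPKM in some library, and all 6 were lowest in ZnF4 of fraction B. They come from the same genes and libraries, and the division of shared reads is unknown, so they are no separate check.

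Motors and spindle genes numbered 9 and were the only role in which every member was lower in ZnF4 than wt of fraction B and higher in fraction C at the deposited scale, with medians of -0.65 (6 of 9 at least 1.5-fold lower) and 0.17. Rescaling on the proB markers shifts the median of all genes in the fraction C comparison to -0.20. The values of Tpx2 (0.02), Kif20a (0.07), Kif2c (0.13), Prc1 (0.17) and Kif23 (0.17) then change sign. These are most of the role, and its median then lies at or just below 0. Kif11, the motor that pushes spindle poles apart, was the most abundant, with 59.3, 72.1 and 41.3 RPKM in B and 75.2, 68.5 and 96.9 RPKM in C. Kif4, a chromosome-bound motor of the spindle midzone, had the highest ZnF4 fold in fraction C (0.55), with 24.7, 34.1 and 20.3 RPKM in B and 30.6, 36.3 and 45.2 RPKM in C. It lies on the X chromosome, and 15.1% of its exon bases overlap the opposite-strand gene Pdzd11. Tpx2, which activates Aurka at the spindle, was 1.89-fold lower in ZnF4 than wt of fraction B, with 54.1, 56.0 and 28.2 RPKM, and level in fraction C, with 68.3, 62.2 and 69.4.

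Hmmr, a spindle-assembly protein, was the least abundant of this role, with 18.8, 21.9 and 12.6 RPKM in B and 25.4, 26.7 and 30.2 RPKM in C. Kif23 and Prc1, which build and bundle the central spindle needed for cytokinesis, were 1.65-fold and 1.56-fold lower in ZnF4 than wt of fraction B. Kif20a, which brings the passenger complex to the midzone, was 1.69-fold lower, Nusap1, a microtubule-bundling protein, 1.70-fold and Kif2c, which depolymerises microtubules at centromeres, 1.57-fold. Exons of Cdc23 on the opposite strand overlap 29.3% of the Kif20a exon bases. Whether strand was used in counting is not given in the sources used here, so reads of such pairs may be mixed, and 12 members have an overlap of this kind.

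The 7 genes of condensin and chromosome structure had the highest levels, with Top2a, the topoisomerase that untangles sister chromatids, at 228, 303 and 146 RPKM in B and 291, 265 and 337 RPKM in C. Mki67, which coats mitotic chromosomes and is the antigen of the Ki-67 stain, stood at 166, 202 and 104 RPKM in B and 206, 232 and 226 RPKM in C. The group's median was -0.67 for ZnF4 against wt in fraction B, with 6 of 7 at least 1.5-fold lower, and 0.06 in fraction C. Condensin subunits had folds of both signs in fraction C. Smc4, a core ATPase shared by both condensins, stood at 119, 113 and 62.3 RPKM in B and 146, 110 and 122 RPKM in C, 1.90-fold and 1.19-fold below wt in ZnF4. Smc2, its partner, stood at 48.8, 53.5 and 29.5 RPKM in B and 62.5, 56.2 and 61.5 RPKM in C. Ncapg, a condensin I subunit, stood at 35.6, 35.5 and 19.7 RPKM in B and 45.3, 31.4 and 42.2 RPKM in C. The condensin I subunits Ncaph and Ncapd2 were 1.51-fold and 1.43-fold lower in ZnF4 than wt of fraction B and within 1.08-fold of wt in fraction C.

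In fraction B the ZnF1 mutant was higher than wt for 33 of 40 members, beside 54.2% of all genes, with a median of 0.17 against 0.04. After rescaling on the proB markers it was lower for 34 of 40, with a median of -0.18 against -0.27 over all genes. At the deposited scale none of the members was at least 1.5-fold higher and 1 (Ccnb1) was at least 1.5-fold lower, beside 7.41% and 6.44% of all genes. The highest values were those of Cdc20 (0.55) and Plk1 (0.52). In fraction C, ZnF1 was lower than wt for 26 of 40 members, beside 58.8% of all genes, and the median of -0.13 lay beside -0.16 over all genes. This count changed with the scale, to 39 lower at equal RPKM sums, 18 lower by the median ratio and 11 lower on the proB markers. The median of all genes moved too, to -0.42, -0.01 and 0.17 in the same order. Ube2c was at least 1.5-fold higher, and Ccnb1, Mad2l1 and Cdc25c at least 1.5-fold lower, beside 19.1% and 22.7% of all genes. At equal RPKM sums 12 members were at least 1.5-fold lower. The library on one side of this comparison carries the granulocyte, monocyte and erythroid marker levels given above, whose part in these values was not tested.

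Set against ZnF1, the ZnF4 mutant was lower for 40 of 40 members in fraction B, beside 60.8% of all genes (39 of 40 on the proB markers). The median was -0.78 (1.72-fold lower) against -0.17, and 34 members were at least 1.5-fold lower and 0 at least 1.5-fold higher, beside 24% and 11.2% of all genes. The count of 34 was 8 after rescaling on the proB markers, with a median of -0.41 against 0.16 over all genes. Plk1 (-1.17), Cdk1 (-1.07), Top2a (-1.05), Cdc20 (-1.04), Aurkb (-1.02) and Nusap1 (-1.01) were more than 2-fold apart. In fraction C, ZnF4 was higher than ZnF1 for 36 of 40, beside 58.3% of all genes, with a median of 0.31 against 0.13. On the proB markers it was lower for 37 of 40, with a median of -0.22 against -0.37 over all genes. At the deposited scale Ccnb1 and Cdc25c were at least 1.5-fold higher in ZnF4 and none was lower by as much, beside 19.7% and 20.3% of all genes. At equal RPKM sums 23 were at least 1.5-fold higher, and on the proB markers 0 were higher and 3 lower by as much. The comparisons of ZnF4 and ZnF1 with wt and with each other share libraries, so their values stand side by side and are not independent of each other.

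From fraction B to fraction C, wt values were higher for 40 of 40 members, beside 56.7% of all genes, with a median of 0.35 (1.27-fold) against 0.06. None of the 40 was 1.5-fold apart in either direction, where 4.71% of all genes were at least 1.5-fold higher and 4.4% lower. On the proB markers the median was 0.64, against 0.32 over all genes, and 31 of the 40 were at least 1.5-fold higher. The range was 0.11 (Cdc25b) to 0.53 (Plk1). In ZnF4 the step was higher for 40 of 40, beside 61.3% of all genes, with a median of 1.12 (2.17-fold) against 0.11. Here 39 of 40 were at least 1.5-fold higher and 0 lower, beside 11.5% and 3.36% of all genes, and the member under 1.5-fold was Cdc25b at 0.49. The roles lay close together in this step, with medians from 1.04 (condensin and chromosome structure) to 1.21 (motors and spindle). Markers of other cells were also higher in this step: 15 of 15 granulocyte and monocyte markers (median 0.81, 11 at least 1.5-fold) and 12 of 13 erythroid markers (median 0.44). Their part in the step was not tested.

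In ZnF1 the step was higher for 25 of 40 members and lower for 15, beside 36.2% of all genes higher, with a median of 0.09 against -0.16. The split was 6 higher and 34 lower at equal RPKM sums, 30 and 10 by the median ratio, and 40 and 0 on the proB markers, so the direction of this step depends on the scale. Ube2c alone was at least 1.5-fold higher (0.81) and none was lower by as much, beside 15.3% and 15.4% of all genes. On the proB markers 40 of 40 were at least 1.5-fold higher, with a median of 1.08. The median of all genes at that scale was 0.77, which is itself above 1.5-fold. Each step uses 1 fraction B library and 1 fraction C library of a genotype, and the low ZnF4 values of fraction B enter both the ZnF4 step and the comparison with wt.

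**Figure D4:**
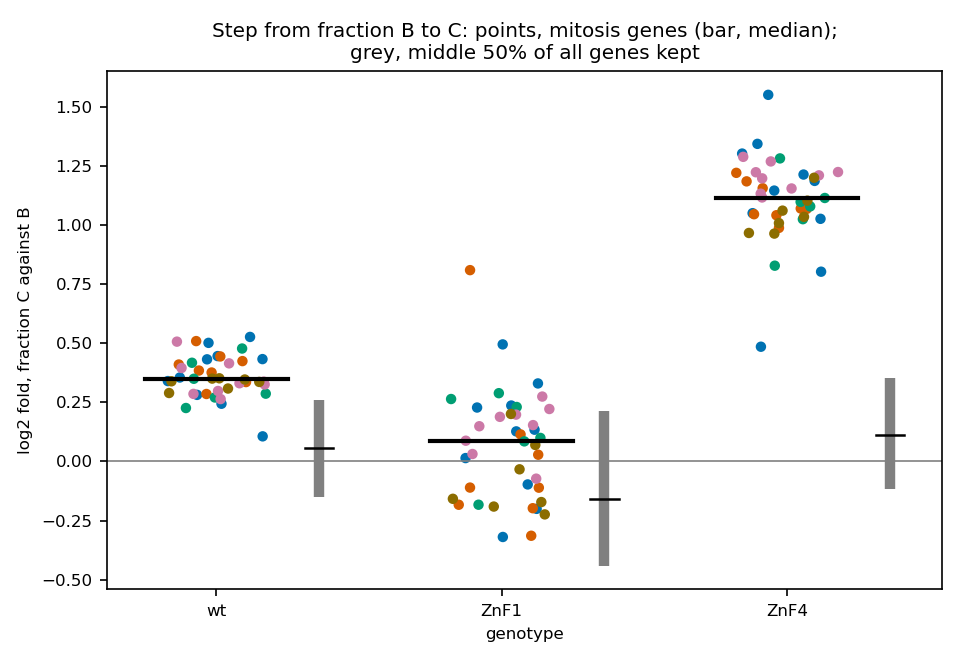
Log2 fold of fraction C against fraction B for each mitosis gene (points, coloured by role as in the plot of ZnF4 against wt) in wt, ZnF1 and ZnF4. Bars are the members' medians (0.35, 0.09 and 1.12), and grey bars with a tick show the middle 50% and the median of all genes kept. In ZnF4, 39 of 40 points lie at 1.5-fold or above and Cdc25b (0.49) lies within the range of the wt points, which reach 0.53. The ZnF1 points straddle 0, with Ube2c at 0.81. Their median was 1.08 after rescaling on the proB markers, against 0.77 over all genes.

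The fit that pools the fractions made no call on these genes. With limma on all 6 libraries and Benjamini-Hochberg adjustment over 10943 genes, 0 of 40 members passed an adjusted p of 0.05 for ZnF4 against wt (0.0274% of all genes, or 3, were called), ZnF1 against wt (0.0274%, or 3), ZnF4 against ZnF1 (1.82%, or 199) or fraction C against B (0%). At an unadjusted p under 0.05 the same limma fits had 1, 1, 1 and 4 members. Over all 10943 genes these counts were 1930, 1018, 2489 and 511. For fraction C against B, 40 members were under it on the proB markers, beside 2812 of the 11010 genes kept at that scale. By the median ratio it was 13 members, beside 685 of 10947 genes. Neither setting gave an adjusted call. Ube2c had the smallest p in this contrast, at a limma log2 fold of 0.75 that ran from 0.60 to 1.21 over 11 alternatives. Cdc25b had the smallest p for ZnF4 against wt, at a log2 fold of -0.58 (SE 0.20) with an adjusted p of 0.251 in limma, and was lower in ZnF4 in both fractions. Over 11 alternatives its log2 fold in limma ran from -0.73 to -0.43. It was called only with either ZnF1 library left out, and in those fits a larger share of all genes than of the members was called. The limma p-values measure only the spread between these libraries, which may be technical. The fit averages the fractions, so a difference that has opposite signs in fractions B and C counts as spread in it.

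Mitosis genes outside the 40, taken from 6 lists with 106 genes kept, had a smaller difference in fraction B. For ZnF4 against wt their median was -0.43 with 89 lower and 16 higher and 31 at least 1.5-fold lower, beside 55.8% and 21.1% of all genes lower by any amount and by 1.5-fold. In fraction C their median was 0.02. Their limma calls were 0 for each contrast. In the order given above, 3, 4, 5 and 7 of the 106 had an unadjusted p under 0.05 in limma. Over all 10943 genes these counts were 1930, 1018, 2489 and 511. Further kinetochore genes were lower for 28 of 29 (median -0.51), among them Cenpk and Cenph of the inner kinetochore network, at 10.6 and 20.5 RPKM in wt against 1.7 and 9.2 in ZnF4. Further motor, spindle and cytokinesis genes were lower for 20 of 21 (median -0.51), with Ect2, which directs the cleavage furrow, at 33.1 against 16.1 RPKM. Entry regulators were lower for 12 of 13 (median -0.52), with the cyclin F gene Ccnf at 48.6 against 26.5 RPKM.

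Medians closer to 0 were found in other lists. The 15 genes of the anaphase-promoting complex had a median of -0.01, with 7 higher and 8 lower. In it 2 genes were at least 1.5-fold lower, the inhibitor Fbxo5, at 43.8 RPKM in wt against 22.9 in ZnF4, and the subunit Anapc10, at 1.2 against 0.3 RPKM. Condensin II and cohesin genes had a median of -0.38 (12 of 13 lower), and Wapal, which releases cohesin, went the other way at 8.3 RPKM in wt against 23.6. Regulators of the DREAM and MuvB complexes had a median of -0.24 (9 of 15 lower), from Tfdp1, the E2F partner, at 20.4 against 7.6 RPKM, to E2f5, at 4.0 against 7.9. G1 cyclins and CDK inhibitors had a median of -0.45 (9 of 14 lower). Mybl2, which encodes B-Myb, stood at 16.6 (wt) and 10.2 RPKM (ZnF4) in B and 27.2 and 18 RPKM in C.

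DNA replication genes, another cell cycle list, were set beside the mitosis genes, with no test of the difference between the lists. The 38 replication genes had a median of -0.79 for ZnF4 against wt in fraction B (34 lower), beyond the -0.64 of the mitosis genes, and of -0.31 in fraction C (33 lower), where the mitosis genes stood at 0.14. On the proB markers the fraction C medians were -0.49 and -0.04. The ratio of summed RPKM of mitosis to replication genes was 1.15, 1.15 and 1.17 in wt, ZnF1 and ZnF4 of fraction B and 1.02, 1.52 and 1.37 in fraction C. Within a library this ratio does not depend on scaling. It was alike in the 3 genotypes of fraction B and higher in both mutants than in wt in fraction C, with no replicates to set an error. In ZnF1 of fraction C the erythroid and myeloid marker levels given above go with it, and their part was not tested.

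**Figure D5:**
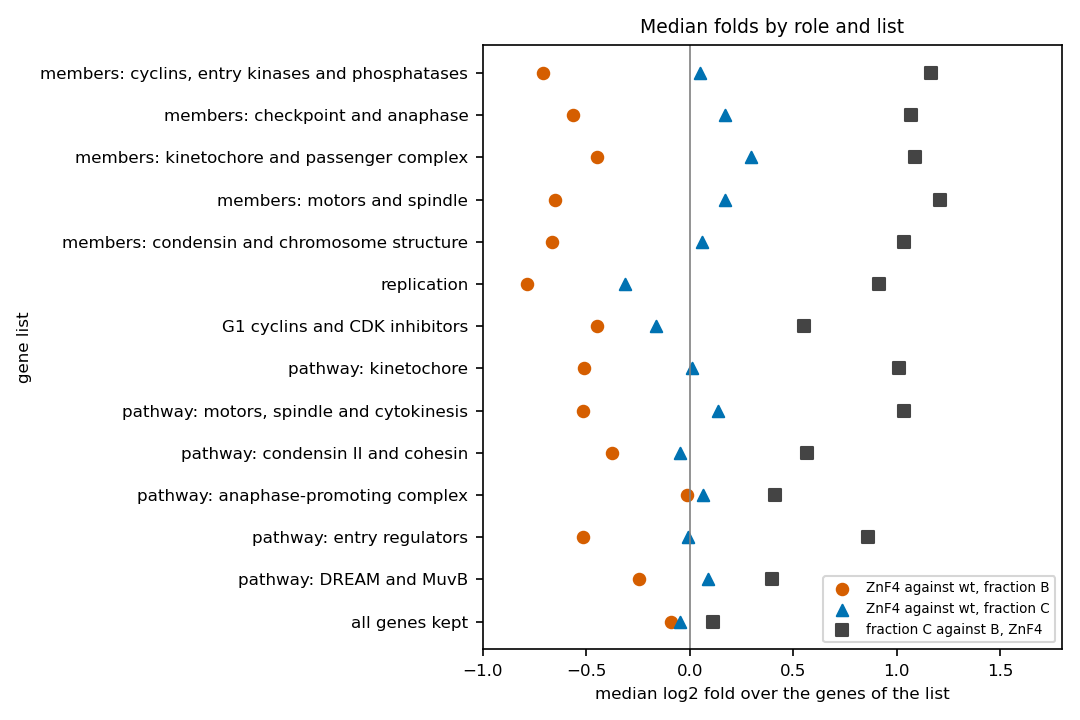
Median log2 folds over the genes of each list for ZnF4 against wt in fraction B (circles) and fraction C (triangles) and for fraction C against B in ZnF4 (squares). The 5 roles of the mitosis genes have circles from -0.71 to -0.45 and squares from 1.04 to 1.21, the anaphase-promoting complex has its circle at -0.01, and replication has its triangle at -0.31. All genes kept are at the bottom. On the proB markers the triangles of 4 of the 5 roles lie at or just below 0 (down to -0.12) and that of the kinetochore role at 0.12.

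Folds of the members with and without a CHR match in the promoter window are set side by side here, with no test. The 7 members without a promoter entry are in neither set. Among them are Smc4 (-0.92), Tpx2 (-0.92), Cdc25c (-0.91) and Aurkb (-0.84), as folds of ZnF4 against wt in fraction B. For ZnF4 against wt in fraction B the median was -0.56 over the 24 members with a match and -0.75 over the 9 members without, and the ranges overlapped (-0.82 to -0.15 and -1.45 to -0.45). For the ZnF4 step from fraction B to C the medians were 1.11 and 1.16. Both sets had all their members lower in ZnF4 than wt of fraction B.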

How the data were processed

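RNA of 6 libraries (3 genotypes, 2 fractions, 1 library each) was measured. The deposited table gives RPKM computed by the authors for each RefSeq transcript, per the file headers, rounded to 0.1; TopHat, bedtools and build mm9 are named, without roles or versions, per the submitters' processing notes. The sources used here do not give the denominator, the use of strand or the division of shared reads. Reads could not be recovered from the values (30.3% to 64.3% came out whole per library, 16.0% to 44.0% by chance), so the depth is unknown and no counting error is given. Of 26532 entries, 1 had no gene name and was left out; 0 columns belonged to other samples. Groups come from the sample titles.

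The transcript with the highest mean stood for each of 22098 symbols, and the 10943 genes averaging 1 RPKM or more were kept. Folds are differences of log2(RPKM + 1) between a pair of libraries, described by counts and medians beside those of all genes. limma 3.58.1 (R 4.3.3; eBayes with trend, genotype and fraction as additive terms, 2 residual degrees of freedom, two-sided) was fitted to all 10943 genes with Benjamini-Hochberg adjustment, and was tested on simulated data. Copies were searched with BLAST 2.17.0 in GENCODE transcripts. Promoters are those of RefSeq in GRCm38.p6, a later build than mm9; motifs were matched by letter.

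The members, the lists of further mitosis and replication genes, the markers, the tests and the comparisons were chosen with earlier results of these data known. By rule, every member may be named; values in all libraries go first to the members with the largest and smallest mean per role, the 2 lowest and 2 highest folds of ZnF4 against wt per fraction and members that go against most; from other lists the 2 highest and 2 lowest folds may be named. Fbxo5, Ect2, Ccnf, Mybl2, Tfdp1, E2f5, Wapal, Cenpk, Cenph and Anapc10 were named by it. Pseudocounts, transcript sums, rescalings, the filter, eBayes without trend and leaving out each library were tried as alternatives.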

Additional observations from a re-analysis of the deposited data

Results flagged for a closer look

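The median log2 fold of the mitosis genes had opposite signs in the fractions in all 3 genotype comparisons: -0.64 in fraction B and 0.14 in fraction C for ZnF4 against wt, 0.17 and -0.13 for ZnF1 against wt, and -0.78 and 0.31 for ZnF4 against ZnF1. The comparisons share libraries. The signs were not opposite on the proB markers for ZnF4 against wt (-0.62 and -0.04) and ZnF4 against ZnF1 (-0.41 and -0.22), nor by the median ratio for ZnF1 against wt (0.12 and 0.03). The medians of all genes moved as well. Less these, the members on the proB markers stood at -0.55 and 0.16 (ZnF4 against wt) and -0.57 and 0.15 (ZnF4 against ZnF1), still of opposite sign. For ZnF1 against wt the values less all genes were 0.13 and 0.03 at the deposited scale, which are not opposite. Among the members, ZnF4 lay at least 1.25-fold below wt in fraction B and at least 1.25-fold above it in fraction C for 4 of 40, beside 0.667% of all genes: Cdc20 (-0.49 and 0.39), Cenpe (-0.45 and 0.37), Cenpf (-0.38 and 0.46) and Kif11 (-0.51 and 0.36). With 1 library per genotype and fraction, none of these differences between the fractions was tested.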

How the results depend on the processing

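The direction of the medians for ZnF4 against wt and against ZnF1 in fraction B and for the wt and ZnF4 steps was the same under all 6 alternatives (2 pseudocounts, transcript sums, 3 rescalings). Less the median of all genes, ZnF4 against wt in fraction B ran from -0.52 to -0.55. On the proB markers the values less all genes were 0.16 (ZnF4 against wt, C), 0.09 (ZnF1 against wt, B), 0.06 (ZnF1 against wt, C) and 0.15 (ZnF4 against ZnF1, C). These kept the sign they had at the deposited scale, so the reversals listed next are of values not set against all genes. Rescaling on the proB markers gave -0.039 (ZnF4 against wt, C; sign reversed), -0.18 (ZnF1 against wt, B; reversed), 0.23 (ZnF1 against wt, C; reversed), -0.41 (ZnF4 against ZnF1, B), -0.22 (ZnF4 against ZnF1, C; reversed), 0.64 (wt step) and 1.08 (ZnF1 step), and 8 in place of 34 members at least 1.5-fold lower in ZnF4 than ZnF1 in fraction B and 1 in place of 27 members highest in ZnF4 of fraction C. Equal RPKM sums gave 0.037 (ZnF1 against wt, B), -0.43 (ZnF1 against wt, C), 0.63 (ZnF4 against ZnF1, C) and -0.17 (ZnF1 step; reversed). The median ratio gave 0.031 (ZnF1 against wt, C; reversed), 0.17 (ZnF4 against ZnF1, C) and 0.24 (ZnF1 step), and 15 in place of 25 members at least 1.5-fold lower in ZnF4 than wt in fraction B. The cause was not tested.

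Leaving out each library in turn, with the lone library of a genotype assumed to vary like the others, limma called 0 to 1 members for ZnF4 against wt and for ZnF1 against wt, 0 to 2 for ZnF4 against ZnF1 and 0 to 0 for fraction C against B. Cdc25b was called in ZnF4 against wt (without either ZnF1 library, log2 fold -0.58). Mad2l1 was called in ZnF1 against wt (without ZnF1 of fraction B, log2 fold -0.93). In that fit ZnF1 rests on its fraction C library, the one with the high granulocyte and erythroid markers. Plk1 (-1.05) and Aurkb (-0.88) were called in ZnF4 against ZnF1 (without ZnF1 of fraction C). In each of these fits a larger share of all genes than of the members was called. Over all genes, limma called 3 for ZnF4 against wt and 132 without the filter, 3372 without ZnF1 of fraction B, 3453 without ZnF1 of fraction C and 0 without any wt or ZnF4 library. No paired analysis was possible because the labels give no replicate numbers and each group has 1 library. The unknown depth limits the low values most, those of Ccnb1 first.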
